A study of Bos indicus with 55 samples.

Results

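Among the genes of the bovine endometrium, 200 varied most in level from cow to cow, and they are described here as a set. Levels were CPM, counts scaled to one common library total (counts per M), taken as log2(CPM + 1). Of 27619 genes in the table, 12347 reached a mean of 5 CPM over 27 libraries, and the 200 of these with the largest standard deviation (SD) over the libraries are called the members. The measured spread therefore chose them, and their spread and joint variation are given as a description with no test.

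Endometrium is the lining of the uterus, and its intercaruncular part, between the sites where the placenta later attaches, holds the uterine glands. Around the day of sampling the bovine conceptus, the embryo with its membranes, elongates and secretes interferon tau, which the endometrium senses and which keeps the corpus luteum and so the pregnancy. Gland secretions feed the conceptus at this stage, before it attaches.

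All libraries were poly(A) RNA from intercaruncular endometrium of cattle on day 16 of pregnancy, 1 library per animal. Conceptuses were of 3 types: in vivo, from artificial insemination; IVF, from fertilisation of the egg in the laboratory; and nuclear transfer, from an egg given the nucleus of another cell. The 6 groups were 3 in vivo females, 3 in vivo males, 7 IVF females, 3 IVF males, 5 nuclear transfer females and 6 nuclear transfer males, where the sex is that of the conceptus. Libraries are named by these words and the replicate number. The uterine horn was the one that held the conceptus (ipsilateral) in 24 libraries and the opposite one (contralateral) in 3, nuclear transfer female 3, in vivo male 2 and nuclear transfer male 6. Horn is thus represented by 1 library in each of 3 groups. The labels give Bos indicus as the organism, the study's design text describes the conceptuses as Bos taurus taurus, and the genome build was ARS-UCD1.2. Animals served as the replicates.

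Library totals lay between 5.53 M and 9.82 M counts (M for mega). The largest belonged to in vivo male 1, and the next largest held 7.37 M. No 2 libraries were alike within sampling noise. The deposited table names genes by Ensembl identifier, and 0 of its 27607 identifiers matched the table of gene names used here. No role can therefore be given for any member, and the markers of epithelium, conceptus, blood or immune cells could not be checked in any library. In bulk tissue, fewer cells of a type and less RNA per cell cannot be told apart. A level in CPM is not per transcript length, so levels are compared between libraries and not between genes.

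The SD of the members ran from 0.97 to 2.21 on the log2(CPM + 1) scale with a median of 1.17, against a median of 0.26 over the 12347 genes. At the edge of the set the ranking is continuous, with SDs of 0.977 and 0.971 for the last members and 0.970 and 0.968 for the next genes outside. Mean levels of the members lay between 5.09 and 1052 CPM. Their median was 17.2 CPM, below the 33.3 CPM of all 12347 genes, so the set leans to genes of lower count. Counting error was nevertheless a small part of the spread. The SD that counting alone gives had a median of 0.160 over the members, and the measured SD was at least 4.13 times the counting SD in each of the 200 (median 8.16, against 2.63 over all 12347). With 1.62% of the genes by number, the members held 19.5% of the summed squared deviations over all 12347 genes. They took 0.503% of all counts in in vivo female 1 and 2.49% in IVF male 1, the lowest and highest libraries.

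**Figure D1:**
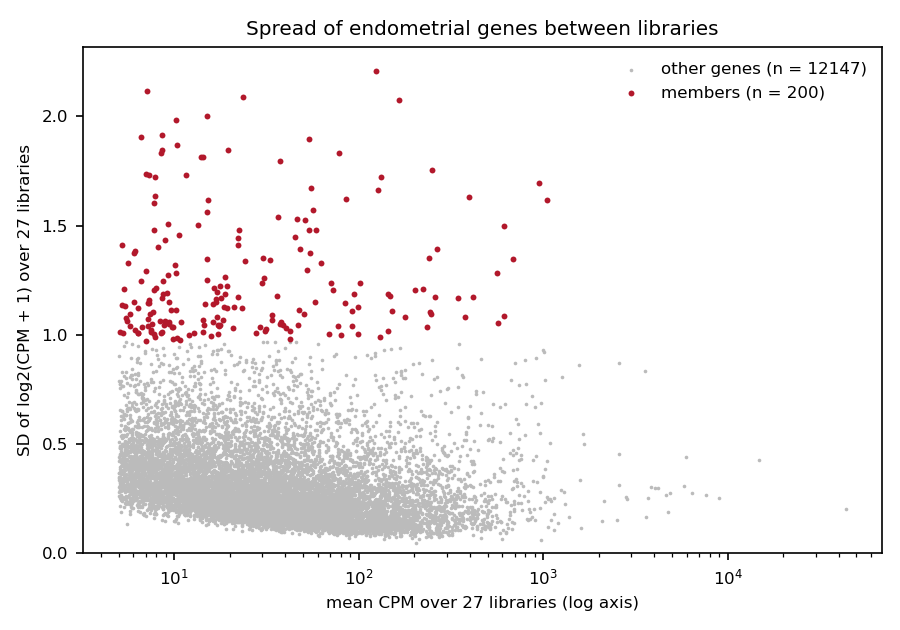
Each point is 1 of the 12347 genes, with its mean CPM on a log axis across and the SD of its log2(CPM + 1) over 27 libraries upward. The 200 members (dark) start at an SD of 0.97 and lie mostly, but not only, toward the lower levels.

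Conceptus type held little of this spread for most members. Between the 3 types lay a median of 11.9% of a member's sum of squares (SD over members 9.35), against 6.61% over all 12347 genes. The highest share was 45.1%, so 0 members had most of their spread between types. Between the 6 groups of type and sex the median was 22.7% for the members and 22.7% for all genes. In the upper range the members differed from the rest, since 16 of them (8%) had more than 50% of their sum of squares between the 6 groups, against 407 (3.30%) of the 12347. Between horns the median share was 5.19% for the members and 2.81% for all genes, with 31.7% the highest among members. For most members the larger part of the spread thus lay between cows of the same group. The rule favours genes with large differences of any kind, so these shares are descriptions of how the chosen genes vary.

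A minority of libraries held the extremes. In vivo female 1 was the lowest of the 27 libraries for 43 members, in vivo male 1 for 30 and nuclear transfer male 6 for 20. Ties at 0 were given to the first tied library in column order, as for ENSBTAG00000021565 with 16 libraries at 0. The highest level fell in IVF female 2 for 21 members, in nuclear transfer male 1 for 20, in in vivo male 1 for 17 and in IVF male 1 for 16. In some members 1 library stood far from all others. Such a gap alone does not show that the member would leave the set without that library. A single library stood more than 2 log2 units above all others for 6 members, 5 of them in IVF female 5, and more than 2 below all others for 12 members, 7 of them in in vivo female 1. At 0 counts in at least 1 library were 24 members (12%), against 26 (0.211%) of all 12347 genes.

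Pairs of members had a high positive correlation more often than pairs of genes in general. Over the 27 libraries, 14.2% of pairs of members had a Pearson r above 0.5, against 5.27% of pairs of all 12347 genes, while 2.67% and 3.68% lay below -0.5. The first principal component of the members carried 29.3% of their variance and the second 11.9%, against 22.4% and 16.2% for all genes. Correlations here are over libraries that share 1 scaling each, and genes are not independent replicates. The measured SD was a median of 8.16 times the counting SD in the members, against 2.63 over all genes. The part of counting error in the difference between members and all genes was not tested. Clustering by average linkage on 1 minus r, with the tree divided at 0.5, gave 6 modules of at least 5 members, which hold 114 of the 200. The other 86 members followed no such group. Modules are numbered by size, and the level of a module in a library is the mean over its members of log2(CPM + 1) after each member's mean over the libraries is subtracted. Since each module was made from the values of these libraries, its levels carry no test.

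**Figure D2:**
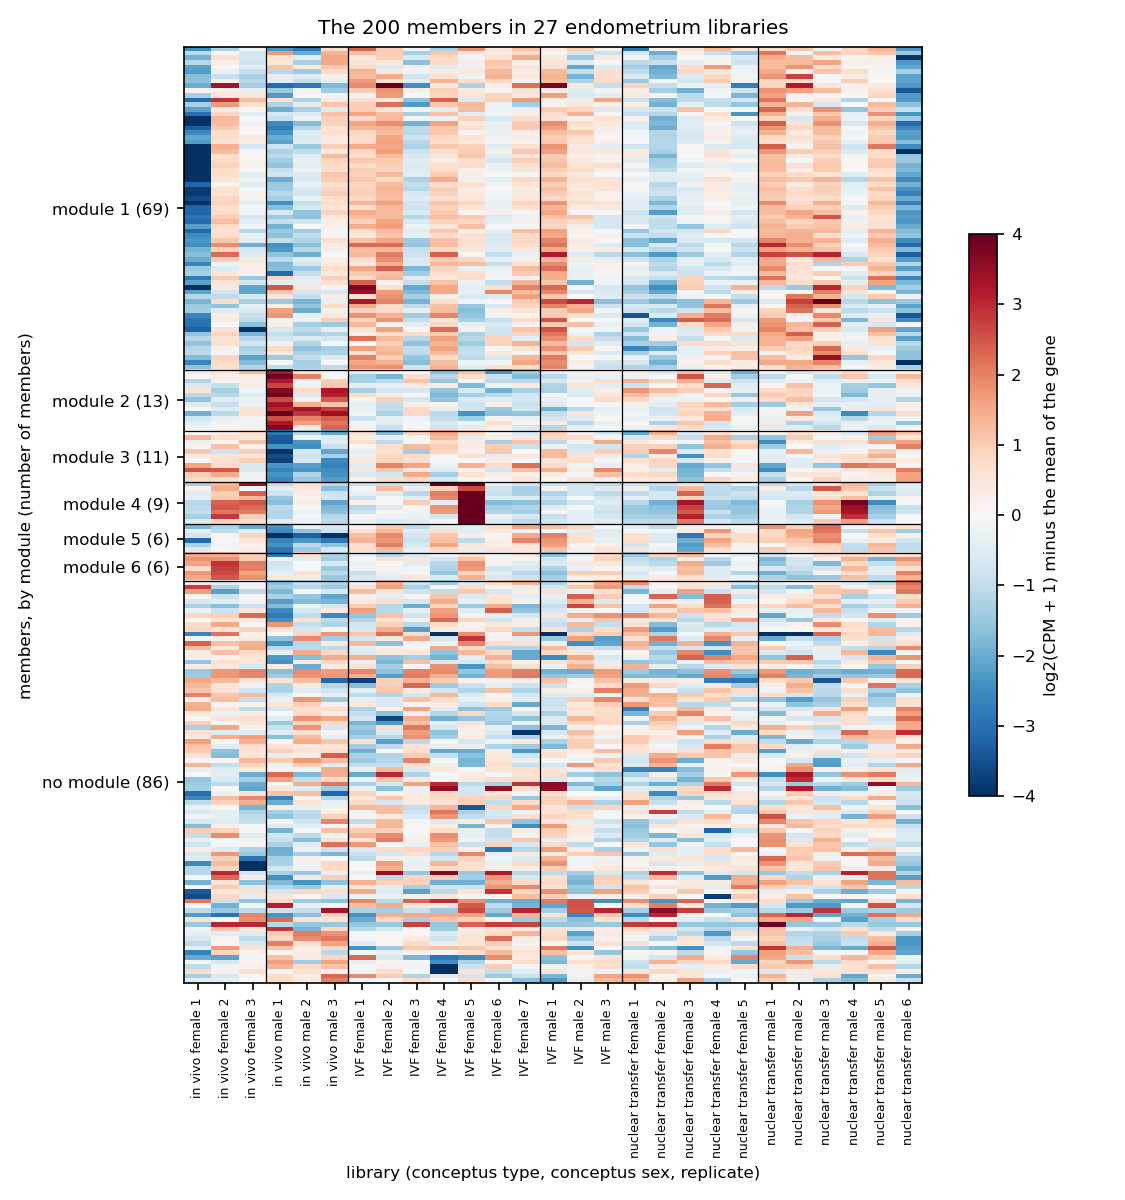
Rows are the 200 members, grouped by module with the 86 outside modules at the bottom, and columns are the 27 libraries grouped by conceptus type and sex. Colour gives log2(CPM + 1) minus the gene's mean, with red for high and blue for low. The first column, in vivo female 1, is blue through much of module 1, and IVF female 5 is red through module 4.

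Module 1 was the largest, with 69 members and a median r of 0.66 between them. Its level was lowest in in vivo female 1 (-2.62), nuclear transfer male 6 (-2.07) and nuclear transfer female 2 (-1.24). The highest levels were those of IVF male 1 (1.40), nuclear transfer male 1 (1.31) and IVF female 2 (1.29). Both ends of the module thus held nuclear transfer libraries, and the in vivo and IVF libraries overlapped. By type the levels were -0.69 ± 1.14 (SD, n = 6) in vivo, 0.47 ± 0.75 (n = 10) for IVF and -0.05 ± 1.05 (n = 11) for nuclear transfer. The 3 contralateral libraries, at -0.27, -0.94 and -2.07, lay within the range of the ipsilateral ones, whose mean was 0.14 ± 0.98 (n = 24).

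The in vivo males were the extreme libraries in modules 2, 3 and 5. Module 2, of 13 members, stood at 3.42, 1.91 and 1.11 in in vivo males 1, 3 and 2, and the other 24 libraries lay between -0.97 and 0.87. Module 3, of 11 members, stood at -3.20, -1.79 and -1.40 in the same order, below the -1.29 to 0.99 of the other libraries. Module 5, of 6 members, stood at -2.85, -1.75 and -1.67, below the -1.45 to 1.65 of the others. In each of these modules the 3 in vivo males did not overlap with any other library, and in vivo male 1, the library with the most counts, was the farthest out. The nearest of the others in all 3 modules was nuclear transfer female 3, a contralateral library. The grouping of modules 2 and 3 changed with the clustering. With ranks in place of values (Spearman), 1 of the 13 and 0 of the 11 stayed in a common module. After the means of the 6 groups were subtracted, 0 and 0 did. Without in vivo male 1 the numbers were 5 and 6, and without in vivo female 1 they were 13 and 5. Module 5 kept 6 of its 6 members with ranks and 5 after group means were subtracted. These numbers count members in a common module, which may also hold members of other modules. With another scaling of the libraries (TMM) there were 5 modules, the largest of 75 members, and module 5 joined module 1. The levels of modules 2 and 3 had a Pearson r of -0.83 but a Spearman rho of -0.38 over the 27 libraries.

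The in vivo males share a further label. A digit from 1 to 4 in the sample code was 3 for all 3 of them, and what the digit stands for is not given in the labels. The other 5 libraries with that digit stood at -0.97 to 0.42 in module 2, 0.11 to 0.57 in module 3 and 0.35 to 1.30 in module 5, apart from the in vivo males in each. The code also holds a letter, which was F, G and H for the 3 in vivo males and A to E for those 5. Among libraries with digit 3, the letter and the group thus cannot be told apart. The part of the digit or the letter in these levels was not tested. In module 5 the 3 in vivo females stood at -1.30, -0.39 and -0.11. IVF libraries had a level of 0.51 ± 0.71 (SD, n = 10) and nuclear transfer libraries 0.27 ± 0.93 (n = 11), and both overlapped with the in vivo females. Module 5 ran with module 1 over the libraries (Pearson r 0.68, Spearman rho 0.77, n = 27).

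Module 4, of 9 members with a median r of 0.85, was high in a scatter of libraries. Its level was 5.08 in IVF female 5, followed by 2.15 in nuclear transfer male 4, 1.97 in nuclear transfer female 3 and 1.73 and 1.72 in in vivo females 3 and 2, while the median library stood at -0.48. All types thus had high and low libraries, and type held a median of 0.951% of a member's sum of squares in this module. IVF female 5 was the highest library for 8 of the 9 members. These 9 members stayed in a common module in each of the 5 other clusterings and with any 1 library left out.

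Module 6, of 6 members, was highest in the 3 in vivo females, at 2.33, 1.58 and 1.49, with no overlap with the other 24 libraries. Next came nuclear transfer male 6 at 1.29, IVF female 5 at 1.27 and nuclear transfer female 3 at 1.03. The in vivo males stood at -1.23, -0.75 and 0.18. The contralateral libraries were at 0.18, 1.03 and 1.29 (mean 0.83 ± 0.58), and the 24 ipsilateral ones at -1.32 to 2.33 (mean -0.10 ± 0.98).

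**Figure D3:**
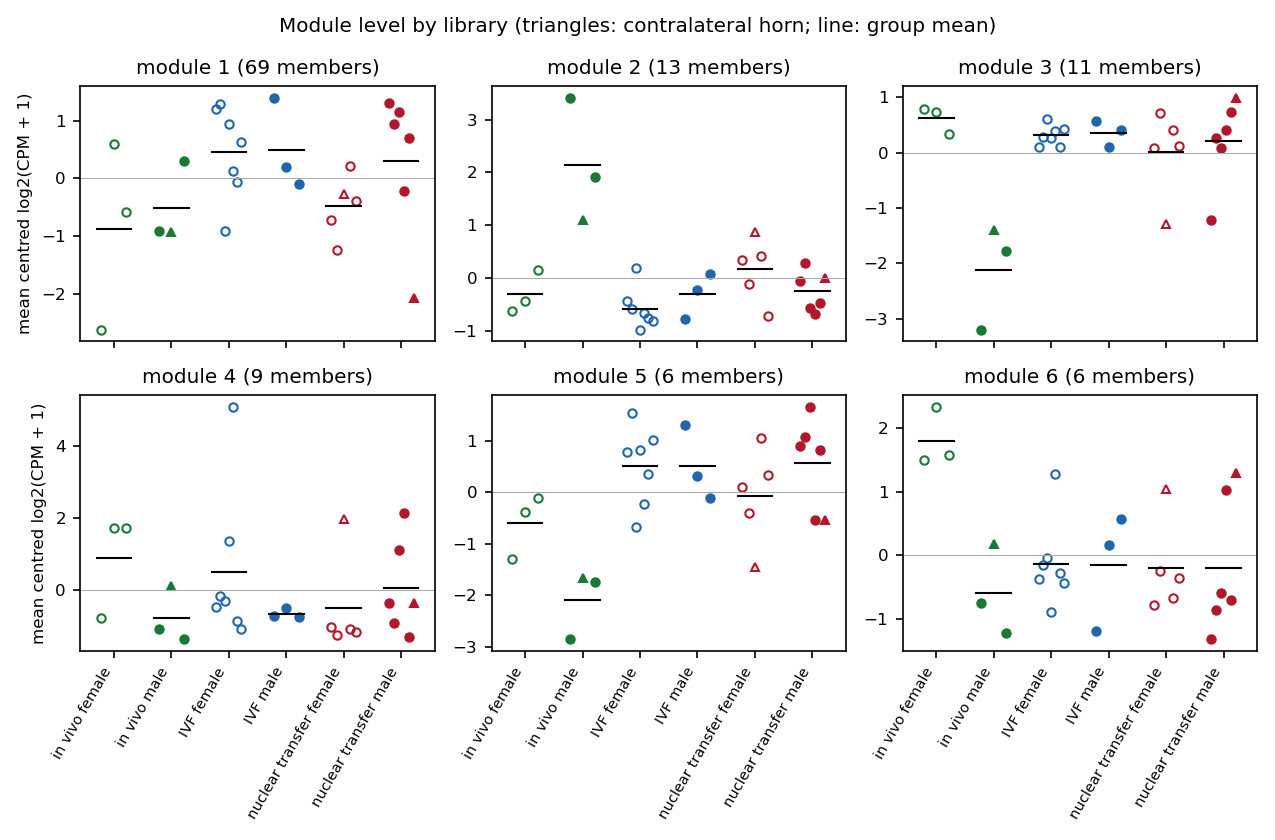
Each panel is a module, each point a library (open for female and filled for male conceptuses, triangles for the contralateral horn), and the vertical axis is the module level in log2 units. Lines are group means, and the 3 in vivo males stand apart in modules 2, 3 and 5 and the 3 in vivo females in module 6.

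Some members had a wide gap in level between 2 sets of libraries. In 8 members, the libraries sorted by level broke at a gap of more than 2 log2 units with at least 3 libraries on each side. No other of the 12347 genes had such a gap, but a gap of this kind itself gives a large SD, by which the members were chosen. They are called split members here. Those with the higher level numbered between 5 and 23 of 27 libraries. ENSBTAG00000021565 stood at 0 to 0.339 CPM in 18 libraries, 16 of them at 0, and at 13.5 to 41.3 CPM in 9. Its high libraries were 2 of 6 in vivo, 4 of 10 IVF and 3 of 11 nuclear transfer ones, and 0 of the 3 contralateral ones. The high level thus occurred under every conceptus type, and by conceptus sex in 8 of 15 females and 1 of 12 males. In vivo males and IVF males were all low. The sex difference did not pass in edgeR (unadjusted p = 0.0092, adjusted p = 0.274).

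A pair of the 8, ENSBTAG00000024608 and ENSBTAG00000030281, both singled out after their values were seen, had the same split in 27 of 27 libraries. ENSBTAG00000024608 stood at 0.256 to 0.823 CPM in 14 libraries and at 14.7 to 22.6 CPM in 13. ENSBTAG00000030281 stood at 0.722 to 1.96 CPM in the same 14 and at 19.4 to 37.2 CPM in the same 13. The high libraries were 4 of 6 in vivo, 6 of 10 IVF, 3 of 11 nuclear transfer and 2 of 3 contralateral ones. Over the libraries the 2 genes had an r of 0.99. Their rows lie 4228 apart in the deposited table, and 100% and 96.3% of their values above 0 were not whole numbers. The part of shared reads in their likeness was not tested. Each of the other 27 pairs among the 8 had the same level in 8 to 20 libraries, with r between -0.31 and 0.28. Across the 8, a library was high for between 1 (in vivo male 1 and nuclear transfer female 5) and 7 (IVF female 6) of them.

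ENSBTAG00000014218, a member of module 5 also singled out after its values were seen, stood at 3.36 to 10.9 CPM in 4 libraries and at 49.6 to 352 CPM in 23. The 4 low libraries were the 3 in vivo males and nuclear transfer female 3. The other 4 split members had 5 to 22 high libraries, with ranges such as 0.470 to 1.34 CPM against 22.6 to 48.5 CPM. The split member with 5 was high in 0 of 6 in vivo, 3 of 10 IVF and 2 of 11 nuclear transfer libraries. Its other libraries spread from 0.425 to 9.82 CPM, so the sides of a gap were not always narrow. By edgeR the smallest adjusted p among the 8 was 0.0562, for IVF against in vivo. Values above 0 were mostly not whole in 5 of the 8.

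**Figure D4:**
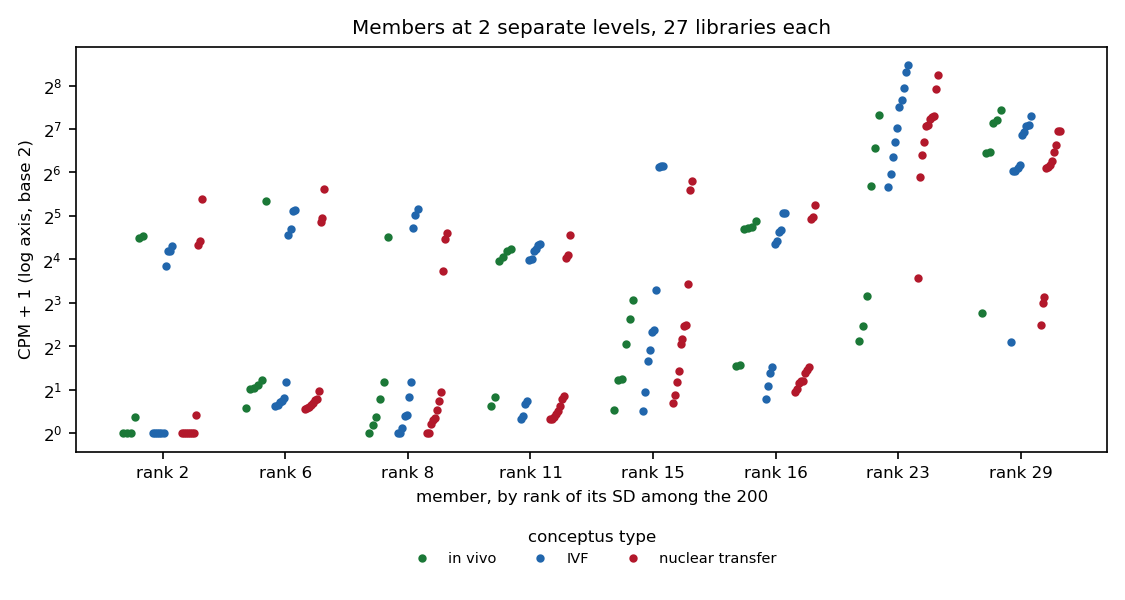
Each point is the CPM + 1 (log axis) of 1 library for the 8 members with a gap of more than 2 log2 units, labelled by the rank of their SD and coloured by conceptus type. Ranks 11 and 16 are the pair with the same 13 high libraries, and both levels occur in all 3 types for 6 of the 8.

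ENSBTAG00000008021 had the largest SD of all 12347 genes (2.21). Its level had a lowest value, median and highest value of 9.72, 95.3 and 293 CPM in vivo, 1.15, 127 and 307 CPM for IVF, and 1.15, 117 and 331 CPM for nuclear transfer. The types overlapped along nearly their whole range, and type held 1.19% of the sum of squares. In 5 libraries, namely IVF female 4, IVF male 1, in vivo female 1 and nuclear transfer males 1 and 2, it stood at 1.15 to 9.72 CPM, and in each of the other 22 at 27.3 CPM or more. Of its values above 0, 88.9% were not whole.

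ENSBTAG00000055240 belonged to module 4. The lowest, median and highest levels were 0.295, 3.51 and 30.7 CPM in vivo, 0.679, 3.09 and 377 CPM for IVF and 0, 1.53 and 78.2 CPM for nuclear transfer. The 377 CPM were those of IVF female 5. Medians of the 3 types differed far less than the libraries within each type did.

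ENSBTAG00000025258 belonged to module 1. The lowest, median and highest levels were 6.01, 15.5 and 620 CPM in vivo, 10.1, 80.1 and 972 CPM for IVF and 7.96, 72.0 and 552 CPM for nuclear transfer. In vivo males were low throughout, at 6.01, 7.25 and 16.7 CPM, whereas the in vivo females spread over 14.4, 23.0 and 620 CPM. Its log2 difference of IVF against in vivo was 2.61 (SE 1.06) and did not pass the threshold in edgeR (adjusted p = 0.383).

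**Figure D5:**
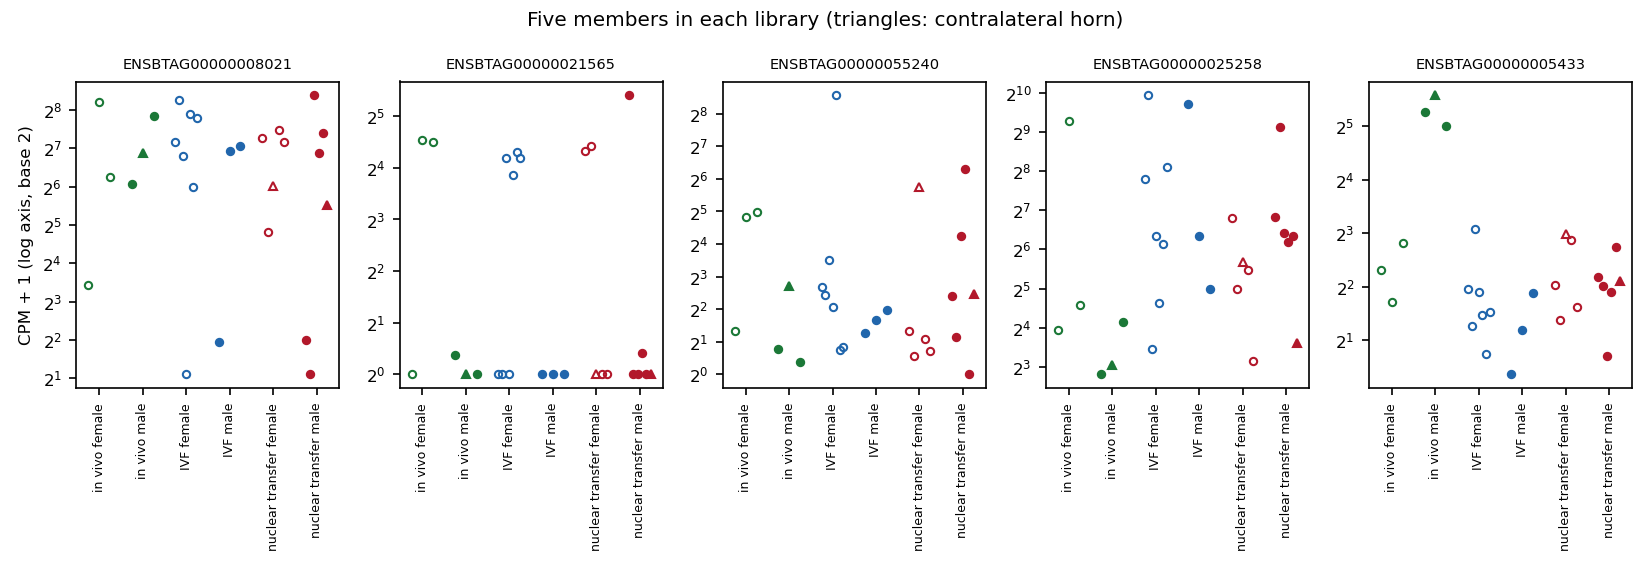
Each panel shows CPM + 1 on a log axis for 1 member in the 6 groups, with open points for female and filled points for male conceptuses and triangles for the contralateral horn. In the panel on the right, the 3 in vivo males of ENSBTAG00000005433 (31.3 to 46.7 CPM) stand above all other libraries (0.282 to 7.39 CPM).

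Levels were then compared between groups in 1 edgeR fit over 15911 genes, which include all 200 members. Of the members, 1 passed an adjusted p of 0.05 for IVF against in vivo, where 0.0126% of all genes tested did. ENSBTAG00000005433, named for this call, stood at 31.3, 37.4 and 46.7 CPM under in vivo males and at 2.28, 3.93 and 6.09 CPM under in vivo females. IVF females had a lowest, median and highest level of 0.679, 1.87 and 7.39 CPM, and IVF males had 0.282, 1.27 and 2.69 CPM. The in vivo males did not overlap with any other library, while the in vivo females lay within the range of the IVF ones. The gene fell by 2.67 on the log2 scale under IVF (SE 0.45, adjusted p = 0.0327 by edgeR's quasi-likelihood test), as a mean of the female and male differences. Its test for a type difference that depends on conceptus sex had an adjusted p of 0.0943 by edgeR. The IVF call was lost with any of 12 single libraries left out (adjusted p = 0.00671 to 0.169 by edgeR over all 27 such fits), namely in vivo females 1 and 3, in vivo males 1 and 3, IVF males 1 and 2, IVF females 1, 2, 4, 5 and 7, and nuclear transfer male 2. Over 9 other settings the adjusted p ran from 3.86e-05 to 0.150, above 0.05 in 3. The fall stayed about as large, at 2.43 to 3.12 on the log2 scale over the 27 fits and 2.52 to 2.87 over the 9 settings.

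No member passed in the other contrasts by edgeR. Among all genes tested, 0% passed for nuclear transfer against in vivo, 0% for nuclear transfer against IVF, 0% for male against female conceptuses, 0.00628% for the interaction of type with sex, and 0.00628% for contralateral against ipsilateral horn. DESeq2 called 9, 1, 2, 15 and 5 members in these 5 contrasts (0.281%, 0.0126%, 0.289%, 1.7% and 0.497% of its tested genes) and 11 (0.522%) for IVF against in vivo. Limma voom called 1, 0, 0, 0 and 0 members (0.0126%, 0%, 0%, 0.0251% and 0% of all tested), and 2 (0.0691%) for IVF against in vivo. Without the 3 contralateral libraries edgeR called 9 members for IVF against in vivo (0.609% of all tested), 6 for nuclear transfer against in vivo (0.658%), 9 for sex (3.22%) and 14 for the interaction (1.76%). In vivo male 2 is among those 3, so leaving out in vivo male 1 as well keeps only in vivo male 3 in its group. The members' median log2 difference for IVF against in vivo was then 0.52, against 0.70 with only the contralateral libraries left out.

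The counts at an unadjusted p under 0.05 by edgeR are given as a description, since the rule chose genes of large spread in these libraries and so favours large differences of any kind. For IVF against in vivo, 59 members (29.5%) were under this p, 46 higher and 13 lower under IVF, beside 10.6% of all genes. The median log2 difference was 0.70 over the members and -0.01 over all genes. Leaving out IVF male 1 alone gave 34 members and a median of 0.50, and leaving out in vivo female 2 gave 79 and 1.01, the lowest and highest of the 27 such fits. For nuclear transfer against in vivo there were 39 members (19.5%), 29 higher and 10 lower, beside 8.89%, with medians of 0.38 and 0.00. The number was 26 without in vivo male 1 and 53 without in vivo female 2. Both contrasts use the same 6 in vivo libraries.

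For nuclear transfer against IVF, 7 members (3.5%) were under an unadjusted p of 0.05 by edgeR, beside 2.16% of all genes, and the members' median was -0.22. This number ran from 2 (without IVF male 1 or IVF female 1) to 15 (without IVF female 3). Male against female conceptuses gave 30 members (15%) beside 12.6%. The number was 19 without in vivo male 1 and 40 without in vivo male 2 or nuclear transfer male 6. The interaction gave 40 (20%) beside 12.3%, and the smallest adjusted p among the members was 0.0602 by edgeR.

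By module, the median log2 differences of IVF against in vivo were 2.25 in module 5, -1.45 in module 2, 1.14 in module 3 and 1.07 in module 1. The corresponding medians for nuclear transfer against in vivo were 2.06, -0.96, 1.22 and 0.53. Over the 86 members outside modules the medians were 0.19 and 0.12. The clustering used these same libraries, and the in vivo males are the extremes of modules 2, 3 and 5, so the values restate the levels above on the scale of the fit.

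For contralateral against ipsilateral horn, 23 members (11.5%) were under an unadjusted p of 0.05 by edgeR, 13 higher and 10 lower, beside 11.5% of all genes. Leaving out nuclear transfer female 3 gave 39, leaving out in vivo male 1 gave 36 and leaving out nuclear transfer male 6 gave 18. The smallest adjusted p among the members was 0.143 by edgeR, in module 6. The median log2 difference was 2.78 over the 9 members of module 4 and 1.40 over the 6 of module 6. It was -1.31 over the 6 members of module 5 and -1.07 over the 69 of module 1. In modules 3 and 2 it was 0.24 and 0.01. Under an unadjusted p of 0.05 by edgeR were 0 members of module 4 and 5 of module 6. Over all 200 members the median was -0.71, against -0.01 for all genes. Single contralateral libraries moved it, to -0.24 without nuclear transfer male 6 and to -1.09 without nuclear transfer female 3. The 3 contralateral libraries are 3 cows, each from a group that also holds ipsilateral ones.

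Members also shared features of the deposited table that the rule did not use. Values above 0 were mostly not whole numbers for 49 members (24.5%), against 1282 (10.4%) of the 12347 genes. Such values are partial counts. On adjacent rows of the table lay 16 pairs of members, made up of 28 members, and their median r was 0.80 (0.15 to 0.99), against 0.10 for the 6481 adjacent pairs among the 12347 genes. What sets the order of the rows is not given in the sources used here. Of the 16 pairs, 11 fell within a module, 8 of them in module 1 and 3 in module 4, and 7 had partial counts in both genes. Modules 1 and 4 held 16 and 5 members with mostly partial counts. The part of shared reads in these correlations was not tested.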

How the data were processed

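The 27 endometrium libraries were prepared from poly(A) RNA with dUTP in the second strand, per the labels' protocols. The authors deposited estimated counts per gene, not normalized, of which 85.2% of the values above 0 were whole within 0.004. The submitters' processing notes name ARS-UCD1.2, cutadapt, STAR, featureCounts, Bowtie and DESeq2. For versions, annotation and strand setting nothing is stated in these sources, and a gene and its antisense partner may share counts.

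Members were chosen from CPM on column totals with a pseudocount of 1. Counts rounded to whole numbers were tested with edgeR 4.0.16 (R 4.3.3; TMM, filterByExpr, robust quasi-likelihood F test, two-sided, Benjamini-Hochberg adjustment over all genes, threshold 0.05) in 1 fit of 6 group means. Type contrasts average the female and male differences, and the horn contrast adds horn. The interaction test was added after the data were seen. On simulated counts for IVF against in vivo (15734 genes), 97.5% of 200 genes changed by a log2 fold of 2 were called, with 7 others. The changed genes were drawn from all tested genes of higher count, whatever their spread. The members have a larger spread, so this share does not describe them. Alternatives used DESeq2 1.42.0, limma 3.58.1 voom, other filters, scalings and covariates, and libraries left out.

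Members, lists, modules and tests were chosen with earlier results of these data known. None of 455 symbols in 30 gene lists, cell type markers included, is in the table. Since 0 members have a symbol, the naming rule gave the 4 identifiers with the largest SD. ENSBTAG00000005433 and those of 3 split members were added after their values were seen. The vesicle table was not used here.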

Additional observations from a re-analysis of the deposited data

Results flagged for a closer look

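A library was set against the others of its group for 33 combinations of a group of 5 to 7 libraries with a module level or a named member, and in 7 of them 1 library stood apart by Dixon's criterion. Chance gives this in about 1 of 20 groups, but the members were chosen for their spread in these libraries, so the number is no test. For module 4, IVF female 5 stood at 5.08 with the next IVF female at 1.38, and nuclear transfer female 3 at 1.97 with the next of its group at -1.01. Its member ENSBTAG00000055240 stood at 8.56 on the log2(CPM + 1) scale in IVF female 5 (next 3.51) and at 5.75 in nuclear transfer female 3 (next 1.34). For module 6, IVF female 5 stood at 1.27 (next -0.04). ENSBTAG00000008021 stood at 1.10 in IVF female 4, the lowest IVF female, with the next at 5.98. ENSBTAG00000021565 stood at 5.40 in nuclear transfer male 1 with the next nuclear transfer male at 0.42. ENSBTAG00000055240 is part of module 4, so its values are not separate from those of the module.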

How the results depend on the processing

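For IVF against in vivo, 1 member was called by edgeR. The number was 11 with DESeq2, 2 with limma voom and 2 with the digit of the sample code added (4 of all 15911 genes). It was 9 without the 3 contralateral libraries and 0 with horn as a covariate. Single libraries left out gave 0 to 6 (6 without in vivo male 2, with 40 of all 16174 genes). For nuclear transfer against in vivo the 0 became 9 with DESeq2, 1 with limma voom, 6 without the contralateral libraries, and 0 to 2 with single libraries left out (2 without in vivo male 2, with 7 of 16174). For nuclear transfer against IVF it became 1 with DESeq2 and stayed at 0 to 0 over single libraries. For sex it became 2 with DESeq2, 9 without the contralateral libraries, and 0 to 2 over single libraries (2 without in vivo male 2, with 78 of 16174). For the interaction it became 15 with DESeq2, 14 without the contralateral libraries, 4 with horn as a covariate (53 of 15911), and 0 to 10 over single libraries (10 without in vivo male 2, with 240 of 16174). For horn it became 5 with DESeq2 and 0 to 2 over single libraries (2 without nuclear transfer female 3, with 67 of 15892). The cause of these moves was not tested. With replicate number as a block, 0 members were called for IVF against in vivo; same-numbered libraries shared a number only, with a median r of -0.03 over 52 pairs (-0.41 to 0.42), and 4 of 26 libraries correlated best with their own number.

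Of the 200 members, 88 stayed with a minimum mean of 20 CPM, since only 88 reach it, 142 to 197 under 6 other choices, and 183 to 199 with single libraries left out. Modules held 93 to 123 members in 5 other clusterings and 105 to 119 over single libraries. The median share between types was 10.3% to 14.4% over single libraries. Split members numbered 13 with a gap of 1.5, 3 with a gap of 3, 2 with a pseudocount of 5, and 8 to 9 over single libraries. Depth limits members near 5 CPM, whose counting SD reached 0.244.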

Other observations

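The 4 members of largest SD and ENSBTAG00000005433, named for its call and of SD rank 67, differed in whether other genes followed them over the 27 libraries. For ENSBTAG00000008021 and ENSBTAG00000021565, 0 of the other genes at 5 CPM or more had a Pearson r above 0.8, and the nearest reached 0.61 and 0.62. For ENSBTAG00000055240 there were 7 such genes, all 7 of them members. ENSBTAG00000025258 had 2, of which 0 were members, and ENSBTAG00000005433 had 5, of which 1 was a member. These values describe likeness of levels over the same libraries.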
